A study of Solanum lycopersicum with 16 samples.

Results

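SlIDD11 (IDD11, Solyc03g121660) is a tomato gene of the INDETERMINATE DOMAIN (IDD) family, 1 of 22 target genes whose transcripts were followed in stressed tomato seedlings by qRT-PCR. It was chosen by its own values, a higher level in shoots 2 h after every stress and a change of the control shoots between 2 h and 24 h, so all contrasts that hold control shoots, and the time changes of stressed shoots, are given below as a description with no test. The RefSeq gene table holds it as LOC101264502 on chromosome 3, matched through 3 of the 5 transcript accessions looked up. The plants were 3 weeks old, of the cultivar M82, which the study describes as carrying the obv mutation of SlIDD5, with no transgene named, and roots and shoots were harvested separately. Control plants received water, salt plants 200 mM NaCl, low pH plants water of pH 4.2, and flooded plants stood with their roots under water. Tissue, treatment and time gave 16 groups: control, salt, low pH and flood, in shoots and in roots, at 2 h and at 24 h. None of the targets defines root or shoot tissue, so the tissue labels could not be checked against markers. In a whole tissue, fewer cells that express a gene and less RNA in each of them cannot be told apart.

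IDD proteins are plant-specific transcription factors that bind DNA through an N-terminal set of zinc fingers, called the ID domain. In Arabidopsis some members act with GRAS proteins in root patterning and in gibberellin signalling, in maize the founding member INDETERMINATE1 controls the move to flowering, and others shape shoot gravitropism and leaf form. In the family tree of the study SlIDD11 stands beside SlIDD2 and SlIDD10, with AtIDD7 and AtIDD11 of Arabidopsis and OsIDD2 and OsIDD11 of rice. What SlIDD11 itself does in tomato was not measured here.

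The measurement is the Ct, the PCR cycle at which a well's signal crosses a threshold, so that a lower Ct is more template. Up to 4 wells stand behind each group. SlIDD11 lies on the first of 2 plates, with well rows A to D read as 2 h and rows E to H as 24 h. The labels instead give the first plate to 2 h throughout. At 24 h at most 3 SlIDD11 wells per group were used, because the well names at the end of row H are irregular and 8 such wells of SlIDD11 were left out. Levels are given as minus delta Ct, the mean Ct of ubiquitin in the same group and plate minus the Ct of SlIDD11, in cycles. A difference of 2 such levels is a log2 fold change if the template doubles in each cycle. Wells cannot be tied to plants, the study states 4 biological samples with 2 technical replicates, and p-values are too low if some wells come from one plant.

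In raw Ct, the control shoots at 2 h stood apart from every other group. Their 3 wells with a value read 22.70, 23.41 and 22.34, and none of the other 50 wells of SlIDD11 that were used was above 21.67. Of the 8 wells left out for their name, 1 in control roots at 24 h read 23.46. In the salt shoots at 2 h the 4 wells read 19.59, 19.93, 19.24 and 19.30. In the low pH shoots at 2 h they read 18.92, 18.95, 18.76 and 18.73. In the flooded shoots at 2 h they read 19.09, 18.96, 18.46 and 18.27. All 12 stressed wells thus crossed the threshold earlier than all 3 control wells. Ubiquitin, the only reference gene, did not separate these groups in the same way: its 2 h shoot means were 15.65 in controls, 15.84 under salt, 14.95 at low pH and 15.72 under flood.

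**Figure D1:**
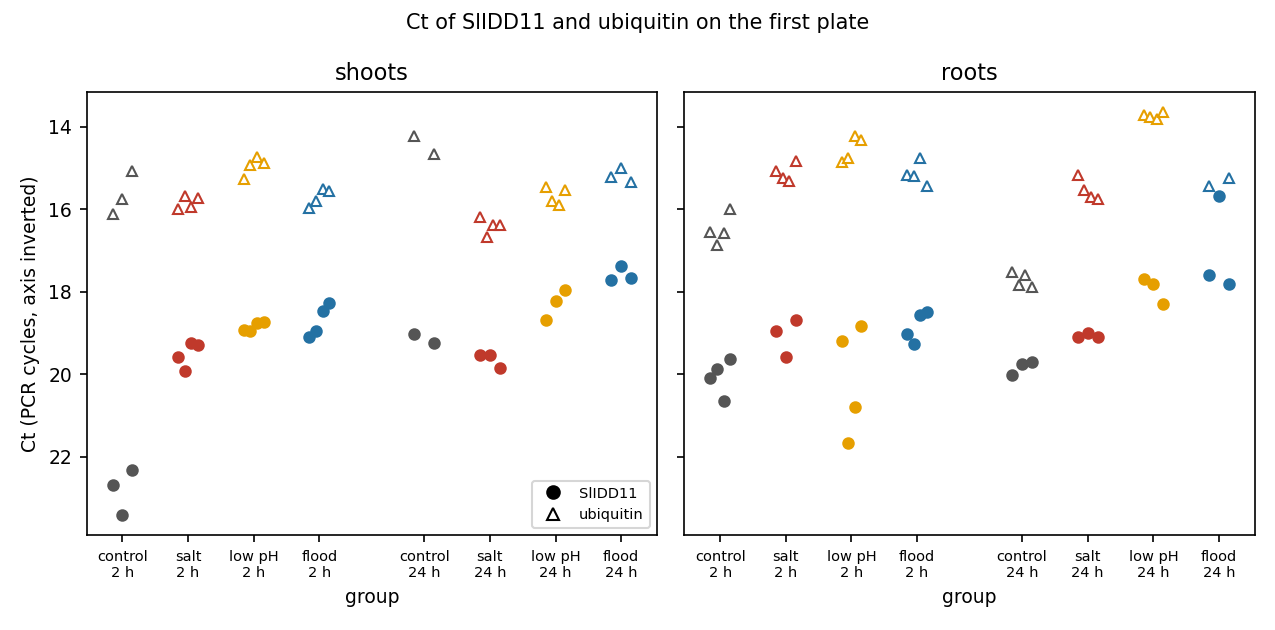
Ct of SlIDD11 (filled circles) and of ubiquitin (open triangles) in each well used of the first plate, by treatment and time, shoots left and roots right. The axis is inverted, so a higher point is more template. The 3 control shoot wells of SlIDD11 at 2 h, from 22.34 to 23.41, lie below all its other wells plotted, while ubiquitin moves most in the roots.

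At 24 h the control shoots no longer lay apart in Ct. The 2 control wells used read 19.02 and 19.25, and the well left out for its name 19.10, between the salt shoots, at 19.53, 19.55 and 19.85, and the low pH shoots, at 18.68, 18.22 and 17.95. The flooded shoots were earliest of the 4, at 17.73, 17.39 and 17.67. The ubiquitin of the 24 h control shoots was also early, with a mean of 14.45 over 2 wells against 16.41, 15.68 and 15.19 in the salt, low pH and flooded shoots. The separation of the 24 h controls from stressed shoots, once ubiquitin is subtracted, therefore contains these ubiquitin differences of 1.96, 1.23 and 0.74 cycles.

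Ordered by minus delta Ct, the 16 group means spanned 5.47 cycles. Each SD below is that of the SlIDD11 wells alone, because the group mean of ubiquitin is subtracted from every well. The spread of ubiquitin, with an SD of 0.53 in the 2 h control shoots, is left out of these SDs and of the well ranges compared. The lowest was the control shoots at 2 h, at -7.16 ± 0.55 (SD, n = 3 wells), or 0.697% of the ubiquitin level. Next came the low pH roots at 2 h, at -5.57 ± 1.34 (SD, n = 4), whose lowest well, at -7.12, reached into the range of the control shoots. The control shoots at 24 h followed, at -4.69 ± 0.17 (SD, n = 2). Above these lay the low pH roots at 24 h, at -4.19 ± 0.33 (SD, n = 3), and the salt roots at 2 h at -3.96 ± 0.46 (SD, n = 3). The low pH shoots at 2 h stood at -3.89 ± 0.11 (SD, n = 4), the flooded roots at 2 h at -3.69 ± 0.37 (SD, n = 4) and the salt shoots at 2 h at -3.67 ± 0.32 (SD, n = 4). In the middle of the order, then, 2 h groups of both tissues lay close together.

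The control roots at 2 h stood at -3.56 ± 0.43 (SD, n = 4), the salt roots at 24 h at -3.52 ± 0.05 (SD, n = 3) and the salt shoots at 24 h at -3.23 ± 0.18 (SD, n = 3). Above them were the flooded shoots at 2 h, at -2.98 ± 0.39 (SD, n = 4), and the low pH shoots at 24 h, at -2.61 ± 0.37 (SD, n = 3). The top of the order held the flooded shoots at 24 h, at -2.40 ± 0.18 (SD, n = 3), the control roots at 24 h, at -2.11 ± 0.18 (SD, n = 3), and the flooded roots at 24 h, at -1.69 ± 1.17 (SD, n = 3), or 31.0% of ubiquitin. Of the 15 pairs of neighbours in this order, 13 had overlapping wells. The exceptions were the control shoots and low pH roots at 24 h, 0.50 cycles apart, and the salt roots and salt shoots at 24 h, 0.29 apart. The high mean of the flooded roots at 24 h rests on 1 well, at a Ct of 15.69 where the other 2 read 17.60 and 17.81.

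**Figure D2:**
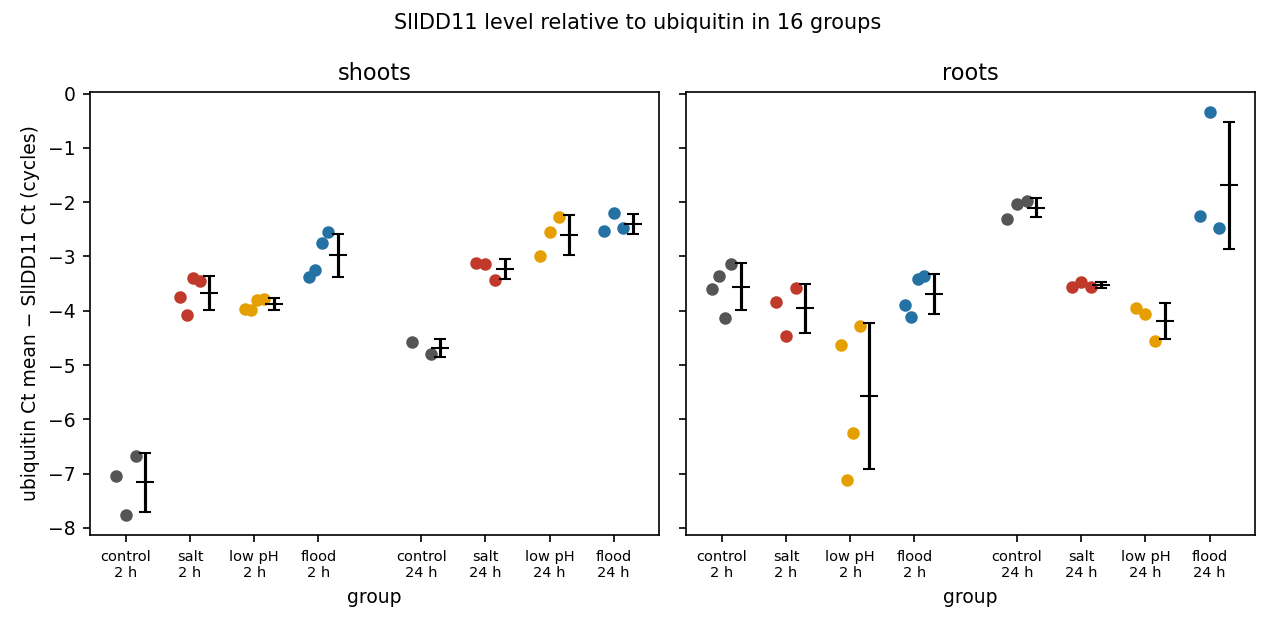
Level of SlIDD11 relative to ubiquitin (minus delta Ct, in cycles) in each well, by treatment and time, shoots left and roots right, with the mean and SD beside the wells. The 6 stressed shoot means lie between -3.89 and -2.40, within the span of the root means from -5.57 to -1.69, and the control shoots at 2 h lie lowest at -7.16.

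Against control shoots at 2 h, the description the gene was selected on, SlIDD11 was 11.2-fold higher under salt (log2 fold change 3.49, SE 0.44, 4 wells against 3). It was 9.71-fold higher at low pH (3.28, SE 0.47) and 18.2-fold higher under flood (4.19, SE 0.45). The 3 values share the same 3 control wells, which have the highest Ct among the wells of the gene that were used, so they are not independent of each other. Taken row by row, with ubiquitin and SlIDD11 of the same well row, all 12 stressed rows lay above each of the 3 control rows. Within the measured set SlIDD11 ranked second in each of these comparisons, after SlIDD15 and before SlIDD18. Both of these lie on the second plate, with other ubiquitin wells. At low pH the ubiquitin Ct differed from controls by -0.70 cycles on the first plate and by 1.30 on the second. In raw Ct SlIDD15 averaged 24.26 in controls and 21.64 at low pH, and SlIDD11 22.82 and 18.84. Among the 11 targets of its own plate SlIDD11 was the highest in each comparison. SlIDD15, grouped with SlIDD3 in the study's tree, was at 4.52 under salt, 3.92 at low pH and 4.34 under flood. SlIDD18, which the study groups with SlIDD1, was at 2.95, 2.17 and 3.66. The median of all targets was 0.36, 0.61 and 1.25.

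At 24 h the excess over control shoots was smaller. SlIDD11 was 2.75-fold higher under salt (1.46, SE 0.31, 3 wells against 2), 4.24-fold at low pH (2.08, SE 0.36) and 4.88-fold under flood (2.29, SE 0.30). Over both plates it then ranked 12th in each comparison, of 22 targets under salt and flood and of 20 at low pH. The medians of all targets lay close to it, at 1.52, 2.19 and 2.41. Among the 11 targets of its own plate SlIDD11 ranked 7th under salt, 10th at low pH and 7th under flood. The medians of that plate lay above it, at 2.18, 3.03 and 2.61. When the target mean of its plate replaced ubiquitin, SlIDD11 was at -0.02, -1.04 and -0.35. With the ubiquitin wells of both plates it was at 0.33, 1.58 and 1.70. The size at 24 h, and with the first of these references its direction, thus moved with the choice of reference, whereas at 2 h the lowest value with any of the 4 other references was 2.52, at low pH.

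**Figure D3:**
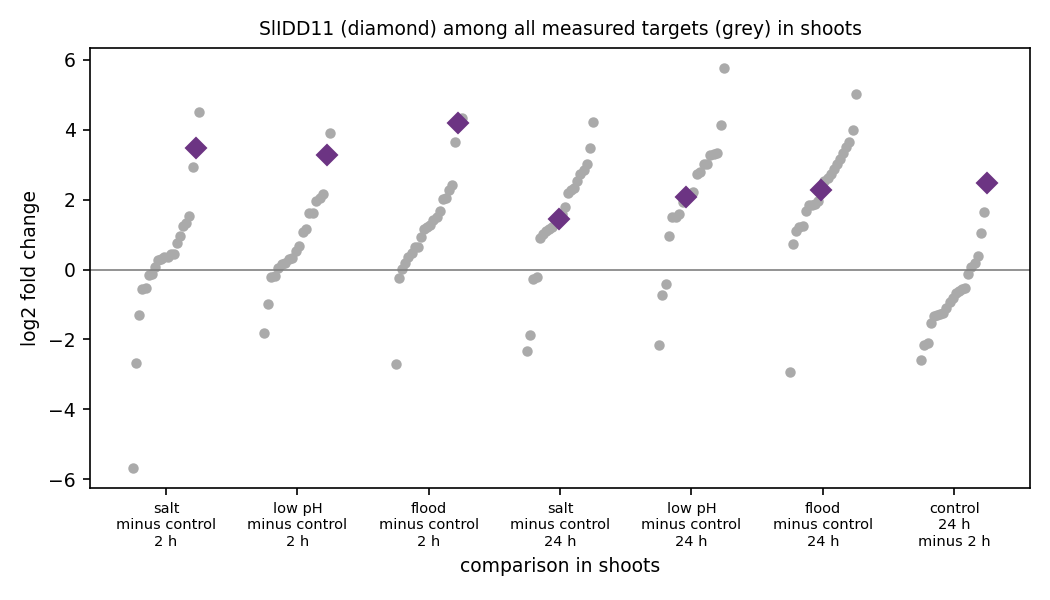
Log2 fold change of SlIDD11 (diamond) and of each other measured target (grey points, in order of size) in the 6 shoot comparisons with the control and in control shoots from 2 h to 24 h. Over the targets of both plates SlIDD11 is the second highest at 2 h under each stress and lies in the middle at 24 h. Among the 11 targets of its own plate it ranks 7th, 10th and 7th at 24 h under salt, low pH and flood. In the control shoots over time it is the highest.

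The control shoots changed with time more than any stressed shoots did. From 2 h to 24 h their SlIDD11 level was 5.56-fold higher (2.48, SE 0.60, 2 wells against 3), the largest of the 22 targets, before SlIDD15 at 1.65. The median of all targets in these controls was -0.74. Over the same time the salt shoots differed by 0.44 (SE 0.27), the low pH shoots by 1.28 (SE 0.28) and the flooded shoots by 0.58 (SE 0.28), with 3 wells against 4 in each. Relative to ubiquitin of the plate, the control level was thus higher at 24 h and no stressed shoot level was lower. With the mean of the plate's targets as the reference the control shoots differed by 3.40, and the salt and low pH shoots by -0.36 and -0.16. The ubiquitin Ct of the control shoots itself differed by -1.20 cycles at 24 h on the first plate and by 0.21 on the second, and without any reference the control shoots differed by 3.68 and the salt shoots by -0.12.

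**Figure D4:**
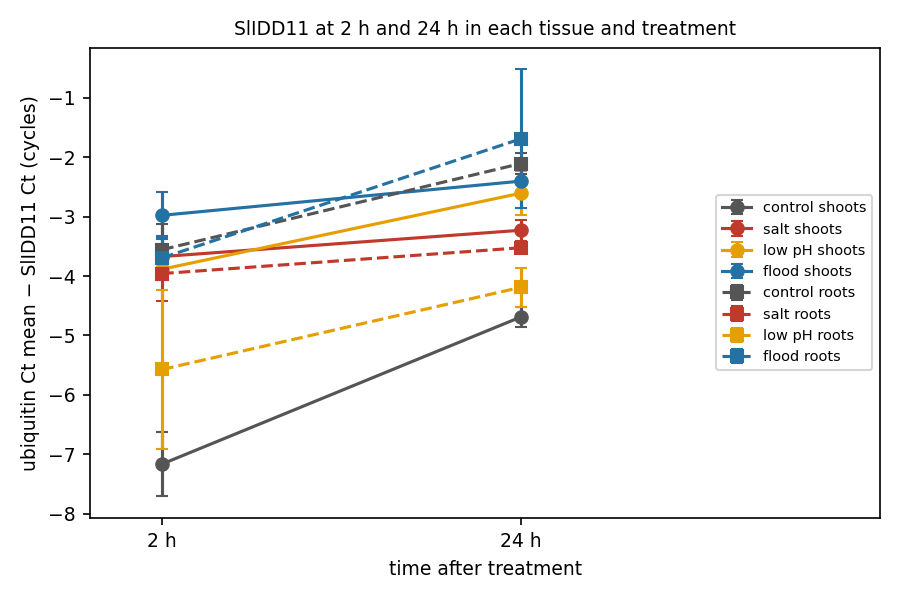
Group mean of SlIDD11 relative to ubiquitin (minus delta Ct, in cycles, with SD over wells) at 2 h and 24 h in shoots (circles, solid lines) and roots (squares, dashed lines), coloured by treatment. The control shoots move by 2.48 cycles, from -7.16 to -4.69, and the stressed shoots by 0.44 to 1.28.

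Whether the stresses differed from each other in shoots did not involve the control wells and was tested with limma over all targets. The p-values were adjusted by Benjamini-Hochberg over the targets of a comparison. The stressed shoot wells at 2 h did take part in choosing the gene, so the p-values at 2 h are not independent of that choice. At 2 h flooded shoots exceeded low pH shoots by 0.91 (SE 0.26, 1.87-fold, adjusted p = 0.0112, 4 wells against 4). In this comparison 55% of 20 targets passed. This call was lost without well row B, C or D (0.92, 0.85 and 0.82, adjusted p = 0.0572, 0.0539 and 0.0593). With ubiquitin of both plates the difference was -0.07 (adjusted p = 0.885). Relative to ubiquitin of the plate the wells of flooded and low pH shoots did not overlap. In raw Ct the flooded wells, from 18.27 to 19.09, spanned the low pH wells, from 18.73 to 18.95. Ubiquitin on that plate differed by 0.76 cycles, and without a reference gene the difference in SlIDD11 was 0.14 (adjusted p = 0.547). Flooded against salt shoots at 2 h gave 0.69 (SE 0.30, adjusted p = 0.0614, 45.5% of 22 targets passing), and low pH against salt shoots -0.21 (SE 0.26, adjusted p = 0.560, 15% of 20 passing). With ubiquitin of both plates the latter was 1.08 (adjusted p = 0.0556).

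At 24 h the flooded shoots exceeded the salt shoots by 0.83 (SE 0.23, 1.77-fold, adjusted p = 0.0109, 3 wells against 3), again without overlap of wells. In this comparison 45.5% of 22 targets passed. The call was lost when any 1 of the 4 well rows was left out, at adjusted p between 0.0501 and 0.0600. Low pH against salt shoots gave 0.62 (SE 0.33, adjusted p = 0.0898, 55% of 20 passing) and flooded against low pH shoots 0.20 (SE 0.30, adjusted p = 0.529, 70% of 20 passing). With the plate's targets as the reference both differences from salt shoots turned negative, at -0.32 for flood and -1.01 for low pH.

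In roots at 2 h, contrasts that played no part in choosing the gene, SlIDD11 was lower at low pH and did not pass under salt or flood. The control roots read Ct 20.10, 19.86, 20.65 and 19.64, and the low pH roots 19.19, 21.67, 20.80 and 18.83, with a ubiquitin Ct difference of -1.95 cycles on that plate. The low pH wells are spread far wider than those of the controls and the raw Ct of both groups overlap. Relative to ubiquitin SlIDD11 fell 4.05-fold at low pH (log2 fold change -2.02, SE 0.67, adjusted p = 0.0286, 4 wells against 4), the lowest of 22 targets, of which 63.6% passed. Without well row B or C the call was lost (-1.38 and -1.86, adjusted p = 0.0947 and 0.123). With ubiquitin of both plates the value was -0.37 (adjusted p = 0.824), since on the second plate ubiquitin at low pH had a Ct 1.41 cycles higher.

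The salt roots at 2 h, at Ct 18.95, 19.58 and 18.69, gave -0.40 (SE 0.41, adjusted p = 0.501, 36.4% of 22 targets passing). The flooded roots at 2 h, at 19.04, 19.27, 18.57 and 18.50, gave -0.14 (SE 0.39, adjusted p = 0.982, 40.9% passing). In both groups the raw Ct of SlIDD11 was below all control root wells. The ubiquitin Ct differed in the same direction, by -1.39 and -1.35 cycles. Without any reference gene the values were 0.99 (adjusted p = 0.0296) and 1.22 (adjusted p = 0.00521).

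At 24 h SlIDD11 was lower relative to ubiquitin in salt and low pH roots. The control roots read 20.02, 19.75 and 19.70, the salt roots 19.10, 19.01 and 19.10, and the low pH roots 17.69, 17.80 and 18.31. All stressed wells of both groups thus crossed earlier than the controls, while the ubiquitin Ct on that plate differed from the controls by -2.17 cycles under salt and -3.97 at low pH. The resulting log2 fold change was -1.42 under salt (SE 0.24, 2.67-fold lower, adjusted p = 2.15e-04, 3 wells against 3, 59.1% of 22 targets passing). It was -2.08 at low pH (SE 0.25, 4.24-fold lower, adjusted p = 5.39e-05, 63.6% passing). On the second plate the ubiquitin difference was -0.79 under salt and 0.05 at low pH, and with both plates the values were -0.73 (adjusted p = 0.155) and -0.25 (adjusted p = 0.762). Without a reference both turned positive, at 0.75 (adjusted p = 0.00545) and 1.89 (adjusted p = 1.47e-04).

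Both 24 h calls held with each well row left out. They were lost when the irregular wells were put back in plate order (-0.60 and -1.37, adjusted p = 0.541 and 0.174), which adds a control root well of Ct 23.46. The flooded roots at 24 h, at 17.60, 15.69 and 17.81, gave 0.42 (SE 0.58, adjusted p = 0.609, 40.9% of 22 targets passing), with a ubiquitin Ct difference of -2.37 cycles on the first plate. Without row F, which holds the well of 15.69, it was -0.27 (adjusted p = 0.697). In an exact permutation test of the wells 3 against 3 cannot go below p = 0.1, which is the value both the salt and the low pH roots gave.

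**Figure D5:**
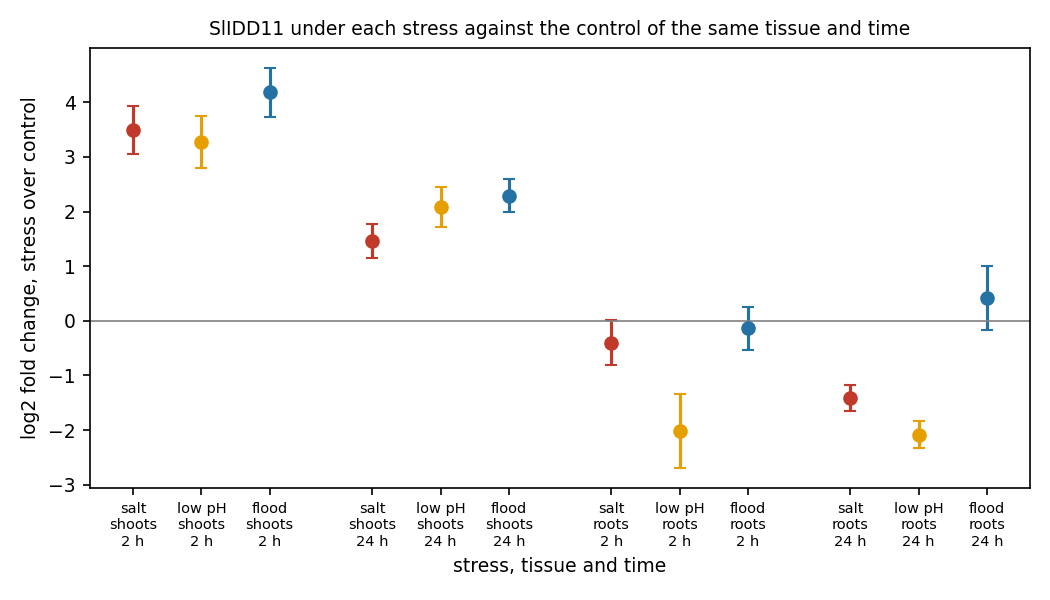
Log2 fold change of SlIDD11 under each stress over its own tissue's control at that time, with its SE, relative to ubiquitin of the same plate. The 6 shoot values lie between 1.46 and 4.19 (described, not tested), and the 6 root values between -2.08 and 0.42.

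In control roots SlIDD11 rose 2.73-fold from 2 h to 24 h (1.45, SE 0.36, adjusted p = 0.0111, 3 wells against 4), in a comparison in which 31.8% of 22 targets passed, all of them higher at 24 h. The raw Ct hardly differed, with means of 20.06 and 19.82, while ubiquitin was 1.21 cycles higher at 24 h on this plate and differed by 0.0039 on the other. The call was lost without well rows A and E (1.62, adjusted p = 0.0606) or C and G (1.25, adjusted p = 0.130), and with ubiquitin of both plates (0.82, adjusted p = 0.351). In flooded roots SlIDD11 rose 4.01-fold (2.00, SE 0.57, adjusted p = 0.0175, 3 wells against 4), the largest of 22 targets, of which 40.9% passed. Without rows B and F, which hold the well of 15.69, it was 1.11 (adjusted p = 0.191), and without rows A and E 2.23 (adjusted p = 0.0509). Low pH roots gave 1.38 (SE 0.70, adjusted p = 0.182, 13.6% passing), also the highest of 22, and salt roots 0.43 (SE 0.30, adjusted p = 0.271, 4.55% passing).

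The relatives of SlIDD11 are given side by side with it in shoots, with no test of the difference between genes. SlIDD10, which the tree places beside it and which lies on the same plate, was at -0.55 (SE 0.50) under salt, -0.18 (SE 0.55) at low pH and 0.02 (SE 0.45) under flood at 2 h. SlIDD2, which the study lists as a segmental duplicate of SlIDD11 and which lies on the same plate, was at 1.33 (SE 0.70), 0.17 (SE 0.66) and 2.27 (SE 0.73). SlIDD16, listed there as another segmental duplicate and measured on the second plate, was at -0.13 (SE 0.39), -1.83 (SE 0.69) and 0.47 (SE 0.33). In control shoots from 2 h to 24 h all 3 were lower relative to ubiquitin of their plate, at -1.23, -0.61 and -0.93, where SlIDD11 was higher. The ubiquitin Ct of these controls differed by -1.20 cycles on the first plate and by 0.21 on the second. In raw Ct SlIDD10 averaged 20.53 at 2 h and 20.56 at 24 h, and SlIDD2 20.78 and 20.18. SlIDD16 averaged 19.88 and 21.02, and SlIDD11 22.82 and 19.14. At 24 h SlIDD10 was at 1.11, 2.14 and 1.96 under salt, low pH and flood, beside 1.46, 2.08 and 2.29 of SlIDD11.

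In roots SlIDD10 passed the test, downwards, where SlIDD11 did: at low pH at 2 h (-1.39, adjusted p = 0.0286), under salt at 24 h (-1.26, adjusted p = 0.00497) and at low pH at 24 h (-2.10, adjusted p = 3.07e-05). Both use the ubiquitin wells of the same plate, so these values share its change. SlIDD2 fell in all 6 root comparisons, from -1.50 (salt, 2 h) to -4.71 (flood, 24 h). SlIDD16 passed in none of the 6, with values from -0.14 to 1.31. Of the 19 measured family members, SlIDD11 included, 6 passed as higher and 2 as lower in salt roots at 2 h, 8 and 4 at low pH, and 6 and 1 under flood. Over all 22 targets, 6 and 2, 10 and 4, and 7 and 2 did. At 24 h 6 family members passed as higher and 6 as lower in salt roots, 4 and 8 at low pH, and 5 and 2 under flood, beside 7 and 6, 6 and 8, and 6 and 3 of all targets. In shoots, by value and with no test, 12, 15 and 17 of the 19 lay above the control at 2 h under salt, low pH and flood. Their medians were 0.37, 0.54 and 1.43, beside 0.36, 0.61 and 1.25 over all targets. At 24 h 16, 17 and 18 did, with medians of 1.58, 2.23 and 2.54, beside 1.52, 2.19 and 2.41 over all targets. The 19 make up most of the targets, 22 under salt and flood and 20 at low pH, so these counts are not particular to the family.

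The pattern of SlIDD11 over the 16 group means was most like that of SlIDD5, by Pearson correlation of minus delta Ct (r = 0.71), before SlIDD4 (r = 0.62) and SlIDD15 (r = 0.62). SlIDD5 is known as OBSCURAVENOSA, which shapes the bundle sheath extensions of leaf veins and is the gene mutated in this cultivar. The least like was SlIDD14 (r = -0.56). With the mean of the plate's targets as the reference SlIDD15 came first (r = 0.72), SlIDD5 next (r = 0.35) and SlIDD4 lower (r = 0.27), and SlIDD9 was least like (r = -0.59), with SlIDD14 at -0.42. With no reference SlIDD14 was still last, at -0.18. These are descriptions over 16 groups that may share plants. For SlIDD5 and SlIDD4 the values also share the ubiquitin wells. Without the 2 h control shoots r was 0.85 for SlIDD5, 0.51 for SlIDD4 and 0.18 for SlIDD15, and it was 0.92 for SlIDD10, against 0.58 with them. The likeness to SlIDD15 thus rests on that 1 group and the distance from SlIDD10 as well: SlIDD10 was at -4.88 in the 2 h control shoots, within the range of its other groups.

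The 2 h control shoot wells carry the shoot values, so their label was set against the rest of the plate. In control roots at 2 h SlIDD11 was at a mean Ct of 20.06, nearer to the stressed shoots than the control shoots at 22.82 were. At 2 h the same held for 3 of the 11 targets of the first plate, SlIDD2, SlIDD4 and SlIDD11, and at 24 h for SlIDD1, SlIDD2 and SlIDD4 but not for SlIDD11. Conversely, the stressed roots of 7 of the 11 targets at 2 h, and of 8 at 24 h, lay nearer to the Ct of the control shoots, and no target showed both. These counts use raw Ct, with no ubiquitin subtracted. Mean ubiquitin Ct on this plate was 16.50 at 2 h and 17.71 at 24 h in control roots, and 15.65 and 14.45 in control shoots. In stressed roots it lay between 13.74 and 15.55. The counts contain these differences and so cannot settle the tissue of the control wells. Control shoots differed from control roots in SlIDD11 by -3.61 (SE 0.56) at 2 h and -2.58 (SE 0.33) at 24 h, relative to ubiquitin. If the first-plate control wells of roots and shoots were exchanged, the 2 h shoot values would be -0.12, -0.33 and 0.58 under salt, low pH and flood. An exchange was not tested. With all 8 rows pooled as 2 h, as the labels have it, the shoot values were 2.73, 2.89 and 3.44.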

How the data were processed

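Transcripts were measured by SYBR Green qRT-PCR on 2 plates of 96 wells for each of 8 combinations of tissue and treatment. The values used are Ct, deposited by the authors as PCR cycles for each well with no normalization (read with CFX Maestro). Of 1536 wells 1425 had a value, from 13.65 to 32.65 cycles, and 1403 were used. The other deposited sheets, the authors' scaled relative quantities and fold changes of treated over control, were not used. Tissue and treatment were read from sample titles and source names, with which the characteristics conflict in places. The reading of rows as times, and the targets of the second plate, came from matching the layout of the paper's supplementary tables, which is no independent evidence. For 24 wells of the first plate the names are irregular, and they were left out.

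Minus delta Ct per well was fitted over all targets of a comparison (22, or 20 where CRF5 and STF4 lacked low pH shoots) with lmFit and eBayes of limma 3.58.1 (R 4.3.3). Standard errors include those of both ubiquitin means (Satterthwaite degrees of freedom). Two-sided p-values were adjusted by Benjamini-Hochberg, with a threshold of 0.05. SlIDD11 was tested in 16 comparisons. In 100 simulated draws of 22 targets with the spreads of flooded against control roots at 2 h, true log2 changes of 1, 2 and 4 were called in 38.3%, 87.3% and 98.3% of cases, with 4.41% of calls false. For flooded against salt shoots at 24 h these were 80.7%, 95.0% and 100%, with 3.50% false. The draws hold independent wells and no shared plants. Figures were drawn with matplotlib 3.10.9, and tables built with pandas 2.3.3, scipy 1.17.1 and numpy 2.4.6, in Python 3.11.15.

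Named beside SlIDD11 are the 3 targets most and the 1 least like it, its relatives in the study's tree and duplicate list, and its neighbours in rank. The gene, these lists and the alternatives were chosen with earlier results of these data known.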

Additional observations from a re-analysis of the deposited data

Results flagged for a closer look

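Under 4 conditions every stressed shoot well of SlIDD11 lay above the mean of the control shoots and every stressed root well below that of the control roots. The log2 change in shoots exceeded that in roots by 3.89 under salt at 2 h, 5.29 at low pH at 2 h, 2.88 under salt at 24 h and 4.17 at low pH at 24 h. These values are relative to ubiquitin of the plate. Without a reference gene the 24 h changes were -0.50 in shoots and 0.75 in roots under salt, and 0.85 and 1.89 at low pH. At 2 h they were then 3.30 and 0.99 under salt, and 3.98 and -0.062 at low pH. The order of the tissues thus turned at 24 h and held at 2 h. The difference between the tissues was not tested, because the shoot values chose the gene. In salt roots at 2 h the highest well, at -3.58, lay only just below the control mean of -3.56. The control root wells there ranged from -4.14 to -3.13, and the root change did not pass (-0.40, limma, adjusted p = 0.501). Under flood the root wells lay on both sides of their control at both times. Of 18 groups with 4 wells of SlIDD11 or ubiquitin on the first plate, none held a well far enough from the others to pass Dixon's limit, where chance alone would single out about 1 in 20 groups. No 24 h group of SlIDD11 had 4 wells in use, so the well of 15.69 in flooded roots was not examined.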

How the results depend on the processing

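All values are log2 differences of SlIDD11, as stress over control where only a stress is named, and "over time" is 24 h minus 2 h. What moved them was not tested, other than that the exchange of controls changes the wells compared. The choice of reference moved most values, and the 3 shoot values at 2 h kept their direction in all settings except the exchange of controls. Without a reference gene, the sign turned for salt roots at 2 h (0.99), flooded roots at 2 h (1.22), salt roots at 24 h (0.75), low pH roots at 24 h (1.89), low pH against salt shoots at 2 h (0.68), salt shoots at 24 h (-0.50), salt shoots over time (-0.12) and control shoots against control roots at 24 h (0.68). Low pH roots at 2 h (-0.062), control roots over time (0.24) and flooded against low pH shoots at 2 h (0.14) no longer passed. Flooded roots at 24 h (2.79), flooded against salt shoots at 2 h (0.82), low pH against salt shoots at 24 h (1.36), flooded against low pH shoots at 24 h (0.69) and low pH roots over time (2.19) then passed. Low pH shoots at 2 h (3.98) and 24 h (0.85), flooded shoots at 24 h (1.54), control shoots (3.68), low pH shoots (0.55) and flooded shoots (1.10) over time, and control shoots against control roots at 2 h (-2.75) moved.

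With the mean of the plate's targets as the reference, the sign turned for flooded against salt shoots at 2 h (-1.03) and 24 h (-0.32), low pH against salt shoots at 24 h (-1.01), salt (-0.025), low pH (-1.04) and flooded (-0.35) shoots at 24 h, and salt (-0.36) and low pH (-0.16) shoots over time. Control roots over time (0.22), flooded against low pH shoots at 2 h (0.19) and flooded roots over time (1.50) no longer passed. Low pH against salt shoots at 2 h (-1.22) and flooded against low pH shoots at 24 h (0.69) then passed. Low pH (2.52) and flooded (2.71) shoots at 2 h, control shoots over time (3.40) and control shoots against control roots at 24 h (-0.073) moved. With ubiquitin of both plates, flooded against low pH shoots at 2 h (-0.072), low pH against salt shoots at 2 h (1.08) and flooded roots at 2 h (0.067) turned in sign, low pH roots at 2 h (-0.37), salt (-0.73) and low pH (-0.25) roots at 24 h and control roots over time (0.82) no longer passed, and flooded against salt shoots at 2 h (1.01) and low pH against salt shoots at 24 h (1.25) then passed. Low pH shoots at 2 h (4.26), salt (0.33), low pH (1.58) and flooded (1.70) shoots at 24 h, control (3.44), low pH (0.77) and flooded (0.95) shoots over time and control shoots against control roots at 24 h (-0.66) moved. With ubiquitin of the same row, flooded against low pH shoots at 24 h turned (-0.021) and flooded against salt shoots at 24 h (0.64) no longer passed. Salt (1.14) and flooded (1.77) shoots at 24 h and the 24 h control contrast (-2.19) moved. In the 24 h control shoots only row F holds both wells, so these moved values rest on 1 control shoot row. Flooded roots at 24 h were at 1.91, also from row F alone, which holds the well of 15.69.

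With the control wells exchanged on the first plate, the sign turned for salt (3.21), low pH (1.59) and flooded (3.47) roots at 2 h, salt (1.16) and low pH (0.50) roots at 24 h, salt (-0.12) and low pH (-0.33) shoots at 2 h, salt (-1.12), low pH (-0.50) and flooded (-0.30) shoots at 24 h and, by construction, the control contrasts at 2 h (3.61) and 24 h (2.58). Flooded roots at 24 h (3.00) then passed, and flooded shoots at 2 h (0.58) and control shoots over time (1.45) moved. With the times as labelled, low pH against salt shoots turned (0.16), flooded against low pH shoots (0.55) no longer passed, salt roots (-0.89) did, and salt (2.73), low pH (2.89) and flooded (3.44) shoots moved, all as 2 h. With the irregular wells in plate order, salt (-0.60) and low pH (-1.37) roots at 24 h and control roots over time (0.54) no longer passed, and the 24 h control contrast moved (-1.66). In the exact permutation test salt (-1.42) and low pH (-2.08) roots and flooded against salt shoots (0.83) at 24 h could not go below p = 0.1. Flooded against salt shoots at 2 h (0.69) gave a permutation p = 0.0286. Permutation p-values were not adjusted over targets, and the limma p of that comparison before adjustment was 0.0391. In one fit over all groups flooded against low pH shoots at 2 h (0.91) and flooded against salt shoots at 24 h (0.83) no longer passed, and low pH roots over time (1.38) did. Without the error of ubiquitin flooded against salt shoots at 2 h (0.69) passed.

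With the well row as a replicate block, flooded roots over time (2.12, adjusted p = 0.0708) no longer passed and flooded against salt shoots at 2 h (0.69, adjusted p = 0.0262) did. No other call changed under the block. Whether wells of a row share more than a position is not stated. Deviations of same-row wells over targets correlated above 0.1 in 25 of 64 row pairs and in no comparison in all rows. This correlation is taken within a row, so it cannot show a shift common to all targets of the row. Leaving out 1 row gave, for calls that changed, low pH roots at 2 h from -2.43 to -1.38, control roots over time 1.25 to 1.62, flooded against low pH shoots at 2 h 0.82 to 1.03, flooded against salt shoots at 24 h 0.74 to 0.86 and flooded roots over time 1.11 to 2.36. It turned the sign of values that did not pass in flooded roots at 2 h (-0.38 to 0.18) and 24 h (-0.27 to 0.83) and flooded against low pH shoots at 24 h (-0.019 to 0.57). For values without a test it gave salt shoots at 2 h 3.12 to 3.98, salt, low pH and flooded shoots at 24 h 1.25 to 1.66, 1.73 to 2.34 and 2.12 to 2.52, salt and low pH shoots over time 0.11 to 0.69 and 1.00 to 1.63, and the 24 h control contrast -2.84 to -2.44. The authors' normalized sheet was not run as an alternative, because its scaling between columns is not stated. The number of wells, 2 to 4 a group, limits the precision.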
